A study of Mus musculus with 6 samples.

Results

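The Hox genes encode homeodomain transcription factors that give the body axis its regional identity, and the mouse carries them in 4 clusters. Members were the protein-coding genes of mm10 whose symbol is Hox followed by a cluster letter and a number. There were 39 of them among 17509 protein-coding genes that could be assessed, with 11 in the Hoxa cluster, 10 in Hoxb, 9 in Hoxc and 9 in Hoxd. H3K4me3, a histone mark of active and poised promoters, had been mapped by ChIP-seq in Lgr5-positive progenitors, a subset of the supporting cells of the cochlea that can give rise to hair cells. The tissue came from C57BL/6 mice of either sex at postnatal days 0 to 3 that carried the Lgr5-EGFP-creERT2 allele, and cells were sorted on GFP. All groups share that allele and the cochlear culture in medium with B27, N2, IGF-1, heparin sulfate, bFGF and EGF. One group had been exposed to neomycin, an aminoglycoside that kills hair cells, for 12 h and the other was untreated, with 2 H3K4me3 libraries each. No neomycin dose appears in the labels, nor whether replicates stem from different cultures. The reporter is driven from the Lgr5 locus alone, so the sorted cells are defined by GFP and not by a second marker.

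In every vertebrate cluster the genes lie in the order in which they act along the body, those with low numbers at the front and those with high numbers at the rear. H3K4me3 at their promoters is laid down by trithorax-group complexes such as that of Kmt2a, and polycomb complexes oppose it and keep unused parts of a cluster silent. In embryonic stem cells many Hox promoters carry H3K4me3 together with the polycomb mark H3K27me3. Several anterior Hox genes act in the hindbrain, next to which the otic vesicle forms.

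The files are 1 list of called peaks per H3K4me3 library, with 14203 and 11545 peaks in neomycin replicates 1 and 2 against 15938 and 10520 in the untreated replicates. Read totals are not among their columns, the depth is thus unknown, and a missing peak means that none was called. The neomycin peaks were shorter, with medians of 70 and 142 bp against 310.5 and 340 bp in the untreated libraries. The untreated lists are called H3K4me2 in their deposited names, although the labels give H3K4me3 and 1 antibody throughout, so the mark in them is to that extent uncertain. Over all assessed genes, 36.4% and 35.2% had a promoter peak with neomycin, 48.4% and 37.4% untreated, and 17.6% in all 4 libraries. The untreated pair alone marked 4.56% and the neomycin pair alone 1.51%. Of 8 assessed supporting cell markers, 7 and 8 had a promoter peak with neomycin (87.5% and 100%) against 8 and 7 untreated (100% and 87.5%). Among them, Cdkn1b, Fgfr3, Hes5 and Jag1 had a promoter peak in all 4 libraries. Lgr5, Sox9, Sox10 and Hey1 could not be assessed for want of a start site. Of 11 mesenchyme and fibrocyte markers, 0 and 0 were marked with neomycin against 4 and 4 untreated (36.4% each). Coch, Prrx2 and Twist1 were marked in both untreated libraries and in no neomycin library. Col1a2, Col3a1, Pdgfra and Pou3f4 were among those with no promoter peak in any library. Of 7 hair cell markers, 1 and 1 were marked with neomycin (14.3% each) against 4 and 1 untreated (57.1% and 14.3%). Of 8 spiral ganglion neuron markers, 2 and 2 were marked with neomycin (25.0% each) against 5 and 3 untreated (62.5% and 37.5%). Of 4 glia and neural crest markers, 2 and 2 were marked with neomycin (50.0% each) against 2 and 1 untreated (50.0% and 25.0%). Of 6 markers of endothelium, macrophages and blood, 2 and 1 were marked with neomycin (33.3% and 16.7%) against 1 and 0 untreated (16.7% and 0%). Flt1 was marked in both neomycin libraries alone and Kdr in replicate 1 of each group. Ptprc and Cd68 were among those with no promoter peak in any library. The part of these other cell types in the Hox counts was not tested.

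The Hox promoters were nearly free of H3K4me3 peaks in both groups. A promoter was called marked when a peak overlapped the 1 kb either side of a start site. By this rule 1 of 39 Hox promoters was marked in neomycin replicate 1 and 0 in neomycin replicate 2, against 1 and 0 in the same-numbered untreated replicates. A smaller share of cells with the mark and less of it per cell cannot be told apart in such pools. Over all assessed protein-coding genes the shares marked were 36.4% and 35.2% with neomycin and 48.4% and 37.4% untreated. The Hox shares were 2.56% in each replicate 1 (exact 95% binomial interval 0.0649 to 13.5%) and 0% in each replicate 2 (0 to 9.03%). These intervals cover counting error only, and neighbouring genes of a cluster are not independent.

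The 2 marked members were Hoxd3 and Hoxd13, each in a single library of a different group. Together they were 2 of 39 members (5.13%) marked in at least 1 library, against 56.6% of all assessed genes. No member was marked in all 4 libraries (background 17.6%), in both neomycin libraries and neither untreated library (background 1.51%), or in the untreated pair without any neomycin library (background 4.56%). The mean number of marked Hox promoters was 0.5 ± 0.707 in neomycin cells and 0.5 ± 0.707 in untreated cells (SD, n = 2 each). An exact two-sided permutation test over the 4 libraries gave p = 1.0, and 2 against 2 libraries allow no p below 0.333.

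The promoter sequences around the marked members show where the called peaks lie, and an unmarked CpG-rich promoter is given beside them. Each spans 250 bases before to 50 bases after a start site in the RefSeq table of GRCm38.p6, which is mm10, and 22 of the 39 members have an entry there. For Hoxd3 (chr2:74711743-74712042, plus strand) the capitals mark the 48 bases of the peak in neomycin replicate 1. For the antisense RNA Gm38462, whose inner start lies inside Hoxd8 (chr2:74705552-74705851, minus strand), the capitals mark the 84 bases covered by the peak in untreated replicate 1. For Hoxd13 (chr2:74667975-74668274, plus strand) and Hoxa5 (chr6:52204538-52204837, minus strand) the capitals mark CpG dinucleotides.
Hoxd3: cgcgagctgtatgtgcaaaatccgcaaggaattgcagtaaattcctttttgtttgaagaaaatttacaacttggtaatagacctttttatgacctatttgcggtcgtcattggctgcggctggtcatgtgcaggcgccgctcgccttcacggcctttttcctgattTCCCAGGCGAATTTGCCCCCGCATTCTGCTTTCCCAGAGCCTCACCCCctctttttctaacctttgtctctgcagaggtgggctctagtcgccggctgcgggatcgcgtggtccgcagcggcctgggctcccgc
Gm38462: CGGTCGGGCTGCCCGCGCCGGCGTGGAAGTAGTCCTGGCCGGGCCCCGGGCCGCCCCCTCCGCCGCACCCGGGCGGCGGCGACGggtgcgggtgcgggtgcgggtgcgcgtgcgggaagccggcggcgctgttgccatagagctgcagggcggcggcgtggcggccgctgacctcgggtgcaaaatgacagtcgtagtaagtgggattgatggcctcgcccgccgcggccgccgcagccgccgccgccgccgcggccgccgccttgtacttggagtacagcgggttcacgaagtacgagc
Hoxd13: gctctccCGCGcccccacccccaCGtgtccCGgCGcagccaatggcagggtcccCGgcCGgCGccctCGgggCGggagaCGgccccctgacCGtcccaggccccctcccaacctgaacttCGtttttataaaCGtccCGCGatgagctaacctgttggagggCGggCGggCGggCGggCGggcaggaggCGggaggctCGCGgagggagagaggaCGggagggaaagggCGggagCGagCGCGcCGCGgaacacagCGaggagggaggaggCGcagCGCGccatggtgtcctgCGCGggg
Hoxa5: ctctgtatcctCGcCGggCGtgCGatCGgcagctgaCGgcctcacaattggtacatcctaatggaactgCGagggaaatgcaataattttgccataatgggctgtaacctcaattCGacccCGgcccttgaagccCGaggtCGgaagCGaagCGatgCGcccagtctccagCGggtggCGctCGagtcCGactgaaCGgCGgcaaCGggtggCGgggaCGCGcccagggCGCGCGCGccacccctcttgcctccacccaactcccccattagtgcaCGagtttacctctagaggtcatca

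The Hoxd13 window held 37 CpG and the Hoxa5 window 29. The peak assigned to Hoxd13 began 54 bases past the end of the printed window, so none of its bases are shown. No peak of any library touched the Hoxa5 window, and the nearest peaks to the Hoxa5 start were 17.1 and 102 kb away with neomycin against 16.8 and 45.7 kb untreated.

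Inside the 4 clusters, which cover 492 kb, 10 peaks were called in all. Neomycin replicate 1 had 3 and neomycin replicate 2 had 1, against 4 and 2 in the untreated replicates. The means were 2.0 ± 1.41 with neomycin and 3.0 ± 1.41 without (SD, n = 2 each), with an exact two-sided permutation p of 0.667, and the ranges of the groups overlap. Of the 10 peaks, 2 were at promoters, 3 inside a Hox gene beyond its promoter window and 5 between genes. Per megabase of cluster this came to 6.1 and 2.03 peaks with neomycin and 8.13 and 4.06 untreated. Over protein-coding genes with 1 kb on either side, 1068 Mb in all, the density was 11.5 and 9.93 per Mb with neomycin and 13.6 and 9.16 untreated.

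Summed peak length inside the clusters was 144 and 110 bp with neomycin and 1039 and 558 bp untreated. The means were 127.0 ± 24.0 bp with neomycin and 798.5 ± 340.0 bp untreated (SD, n = 2 each). The groups do not overlap, but the exact two-sided permutation p was 0.333, the smallest these libraries allow. Peaks were shorter with neomycin over the whole lists too, by the medians given above. The shortest peak of a list was 48 and 110 bp with neomycin and 187 and 234 bp untreated. Each neomycin peak inside the clusters had the shortest length of its list. The part of these list-wide lengths in the cluster sums was not tested. The tested fit of peak length runs over promoters marked in all 4 libraries, and no Hox promoter is among its 3090. Lengths in it were centred on the median of each library, which takes out a shift shared by all promoters. In that limma fit 0 promoters passed a Benjamini-Hochberg adjusted p of 0.05 (0.0%), and 306 had an unadjusted p under 0.05. Without centring 894 passed, of which 0 were longer and 894 shorter with neomycin.

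**Figure D1:**
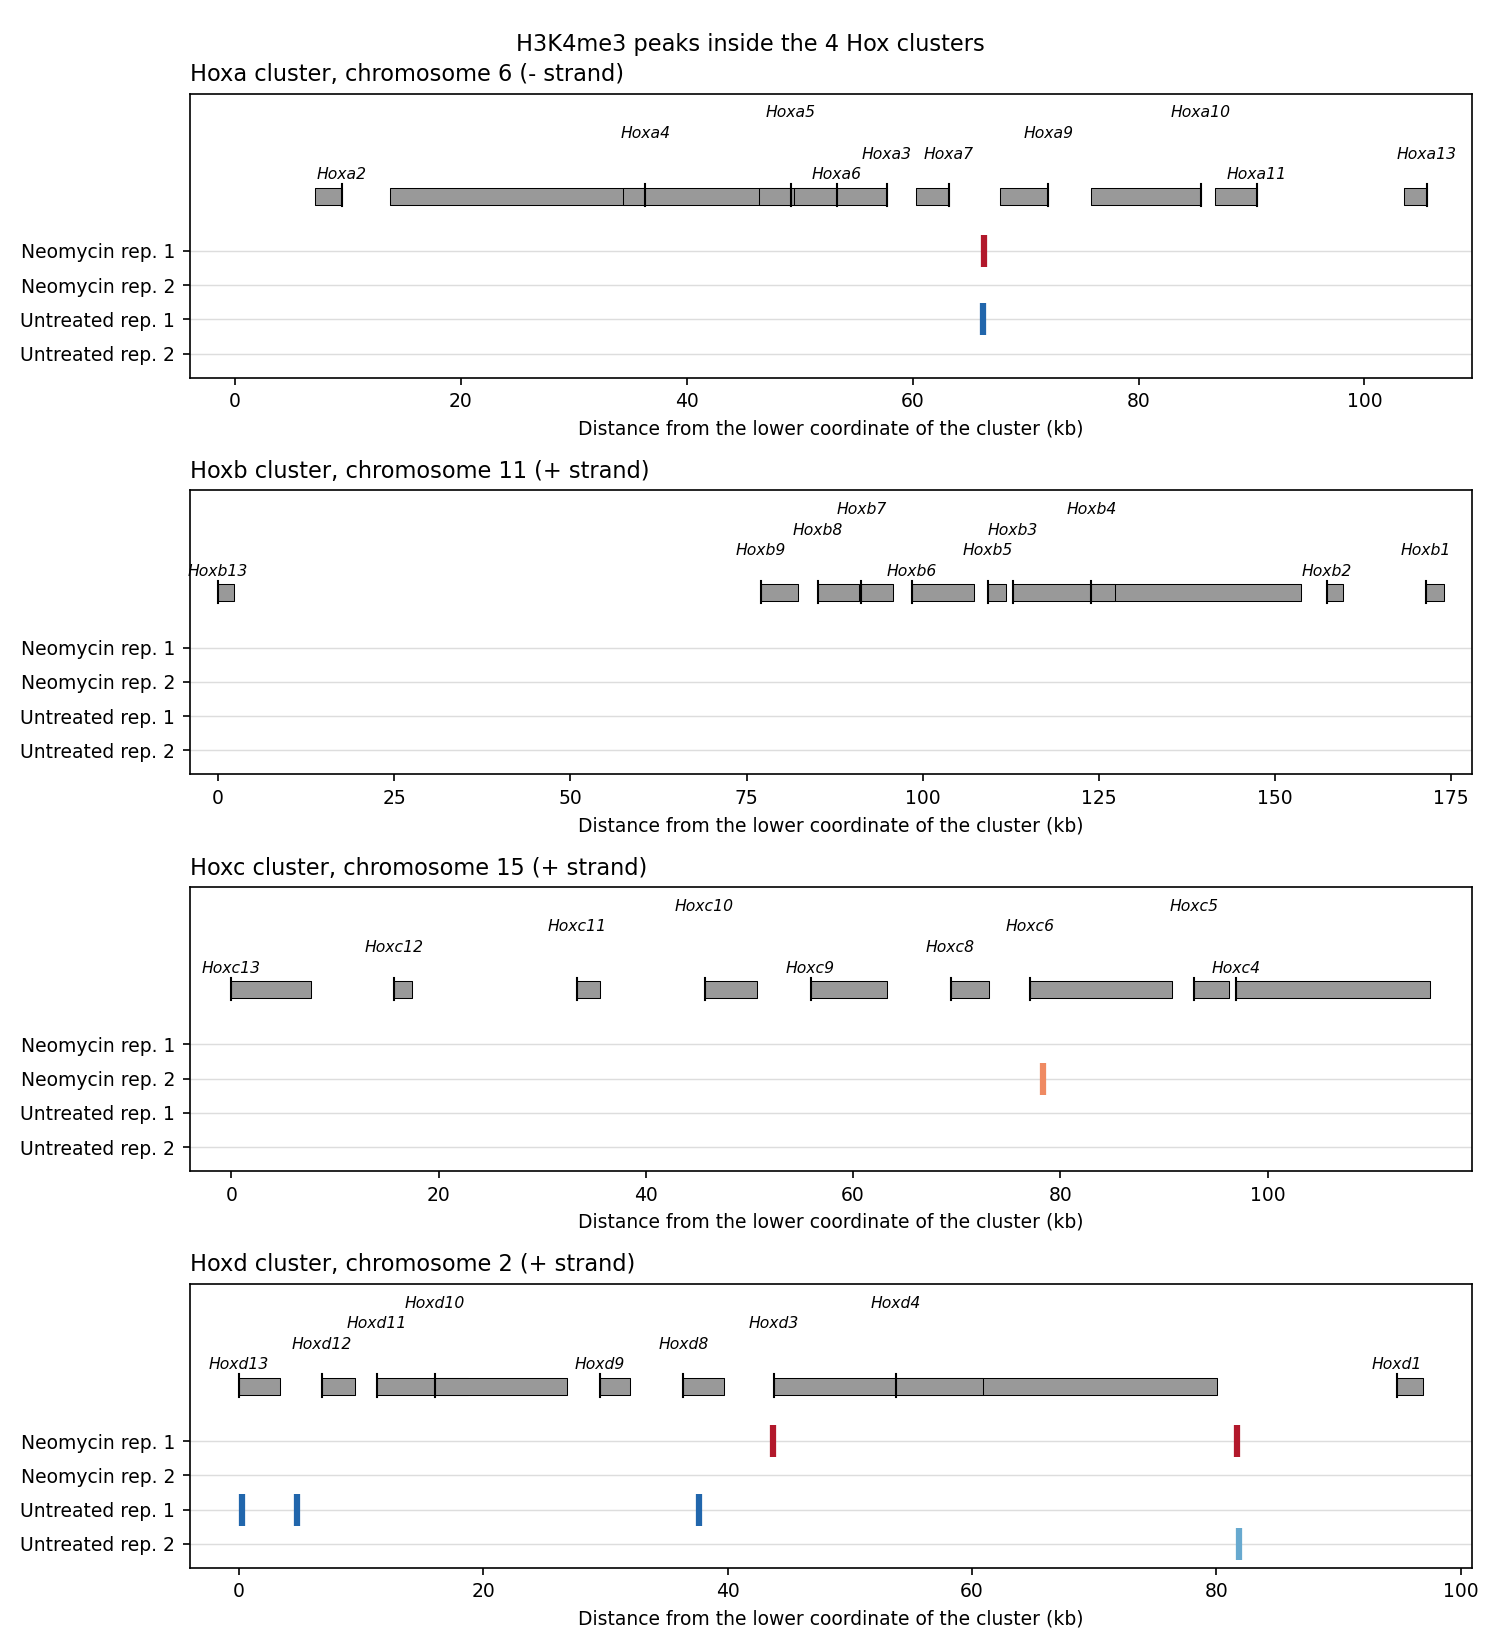
Map of the 4 Hox clusters, with distance from the lower coordinate of each cluster in kb on the x axis, genes as grey boxes with a black line at the outermost start site, and called peaks as coloured ticks (wider than the peaks) in 1 row per library. Of the 39 genes and 10 peaks, 1 gene and 1 peak are not drawn. The peaks are scattered, the Hoxb cluster has none, and the only places where ticks of different libraries meet are between Hoxa7 and Hoxa9 and between Hoxd3 and Hoxd1.

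The Hoxd cluster on chromosome 2 (chr2:74668225-74765142, 96.9 kb, plus strand) held most of the peaks, 6 of the 10. Neomycin replicates 1 and 2 had 2 and 0 of them, and untreated replicates 1 and 2 had 3 and 1. The genes run from Hoxd13 at the lower coordinate to Hoxd1 at the upper, and the late-acting end of the cluster patterns the digits and genitalia. Hoxd13, the gene at that end, had a peak of 347 bp in untreated replicate 1 (chr2:74668328-74668674), which began 103 bp inside the gene. Its pileup at the summit was 11 and its fold enrichment over local background 6.87, both the authors' values, and its -log10 q lay at percentile 33.0 of its list. In the other libraries the nearest peaks to the Hoxd13 start were 43.7 and 89.9 kb away in neomycin replicates 1 and 2 and 81.7 kb away in untreated replicate 2. Hoxd13 was thus marked in 1 library of 4.

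A second peak of untreated replicate 1, 220 bp long, lay between Hoxd13 and Hoxd12 (chr2:74672905-74673124), 1.3 kb past the end of Hoxd13 and 1.89 kb before the start of Hoxd12. Hoxd12, Hoxd11, Hoxd10 and Hoxd9, which act in the limb with Hoxd13, had no promoter peak in any library. The third peak of untreated replicate 1, 187 bp long, lay inside Hoxd8 (chr2:74705768-74705954), 1.15 kb past its start and thus just outside the promoter window. It is the peak printed in capitals at the inner start of Gm38462, from which it is 167 bp away. Its length is the shortest that occurs in that list.

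Hoxd3, which patterns the upper neck vertebrae, had a peak of 48 bp in neomycin replicate 1 (chr2:74711909-74711956). It ended 37 bp before the Hoxd3 start and lay 102 bp from the outer start of Gm38462, a non-coding RNA of the opposite strand. The peak also lay inside a further non-coding RNA, Hoxd3os1, so it cannot be given to 1 of these genes. The pileup was 7, the fold enrichment 5.9, and the -log10 q at percentile 53.0 of its list. Peaks of 48 bp are the shortest in neomycin replicate 1. The nearest peak to the Hoxd3 start was 134 kb away in neomycin replicate 2, against 6.04 and 38.0 kb away in untreated replicates 1 and 2.

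Downstream of Hoxd3, within the non-coding RNA Haglr, neomycin replicate 1 had a peak of 48 bp (chr2:74749920-74749967) and untreated replicate 2 a peak of 234 bp (chr2:74749958-74750191). They overlapped by 10 bp. The untreated peak lay 12.8 kb before Hoxd1, and the neomycin peak 1.65 kb past the end of Hoxd3. Both were at the weak end of their lists, at percentiles 8.21 and 3.03 of -log10 q. Hoxd4 and Hoxd1, the remaining members, had no peak in a promoter window or in the gene body. For Hoxd1 the nearest peak was 185 kb away in neomycin replicate 2, against 57.0 kb away in untreated replicate 1.

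The Hoxa cluster on chromosome 6 (chr6:52155367-52260880, 106 kb, minus strand) held 3 peaks and no marked promoter. Neomycin replicates 1 and 2 had 1 and 0 peaks, and untreated replicates 1 and 2 had 1 each. Between Hoxa7 and Hoxa9, which specify the trunk and, for Hoxa9, also act in blood progenitors, neomycin replicate 1 had a peak of 48 bp (chr6:52221681-52221728) and untreated replicate 1 a peak of 285 bp (chr6:52221408-52221692). The 2 peaks shared 12 bp. They lay 3.11 kb (neomycin) and 2.83 kb (untreated) upstream of the Hoxa7 start. The neomycin peak was at percentile 8.21 of -log10 q in its list and the untreated peak at percentile 73.4.

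Hoxa2, the selector gene of the second branchial arch, and Hoxa3, needed for thymus and parathyroid, had no peak in the gene body or at the promoter. The median distance from start sites of the cluster to the nearest peak was 17.1 and 93.0 kb with neomycin and 16.8 and 54.2 kb untreated. No promoter or gene body peak was called at Hoxa4, Hoxa5, Hoxa6, Hoxa7, Hoxa9, Hoxa10, Hoxa11 or Hoxa13 in any library.

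The Hoxb cluster on chromosome 11 (chr11:96194316-96368254, 174 kb, plus strand) held no peak in any library. Its 10 members are Hoxb1, which specifies a hindbrain segment and its facial motor neurons, Hoxb2, Hoxb3, Hoxb4, Hoxb5, Hoxb6, Hoxb7, Hoxb8, Hoxb9 and Hoxb13. The median distance from their start sites to the nearest peak was 174 and 223 kb with neomycin and 159 and 223 kb untreated. Single genes lay 69.7 to 291 kb from a peak with neomycin and 94.3 to 290 kb untreated. The peak-free stretch around the cluster measured 725 and 702 kb with neomycin and 364 and 714 kb untreated. That is longer than 92.9%, 92.1%, 89.3% and 91.5% of the gaps between neighbouring peaks in those 4 lists, whose medians were 43.1, 48.1, 43.7 and 77.8 kb.

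The Hoxc cluster on chromosome 15 (chr15:102921131-103036856, 116 kb, plus strand) held a single peak. It was a 110 bp peak of neomycin replicate 2 inside Hoxc6 (chr15:102999366-102999475), a gene of the thoracic region, 1.14 kb past the annotated start. Its -log10 q was at percentile 85.7 of its list, while its length was the shortest in that list. In neomycin replicate 1 and in the 2 untreated replicates the cluster was empty, and the peak-free stretches around it were 355, 339 and 652 kb. The start sites lay 1.14 to 174 kb from the nearest peak with neomycin and 52.1 to 325 kb untreated. Hoxc4, Hoxc5, Hoxc8, Hoxc9, Hoxc10, Hoxc11, Hoxc12 and Hoxc13 had no peak in the gene body or at the promoter in any library.

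The start sites of most members lay far from any peak. The median distance to the nearest peak over the 39 genes was 61.7 and 102 kb with neomycin and 57.0 and 102 kb untreated. Over all assessed protein-coding genes the medians were 24.6 and 29.0 kb with neomycin and 3.15 and 25.3 kb untreated. A peak lay within 10 kb of 5 and 2 Hox starts with neomycin and of 9 and 2 untreated, that is 12.8%, 5.13%, 23.1% and 5.13%. For all assessed genes these shares were 42.1%, 40.8%, 53.7% and 42.2%. Members of a cluster share their nearest peaks, so these distances are not independent.

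**Figure D2:**
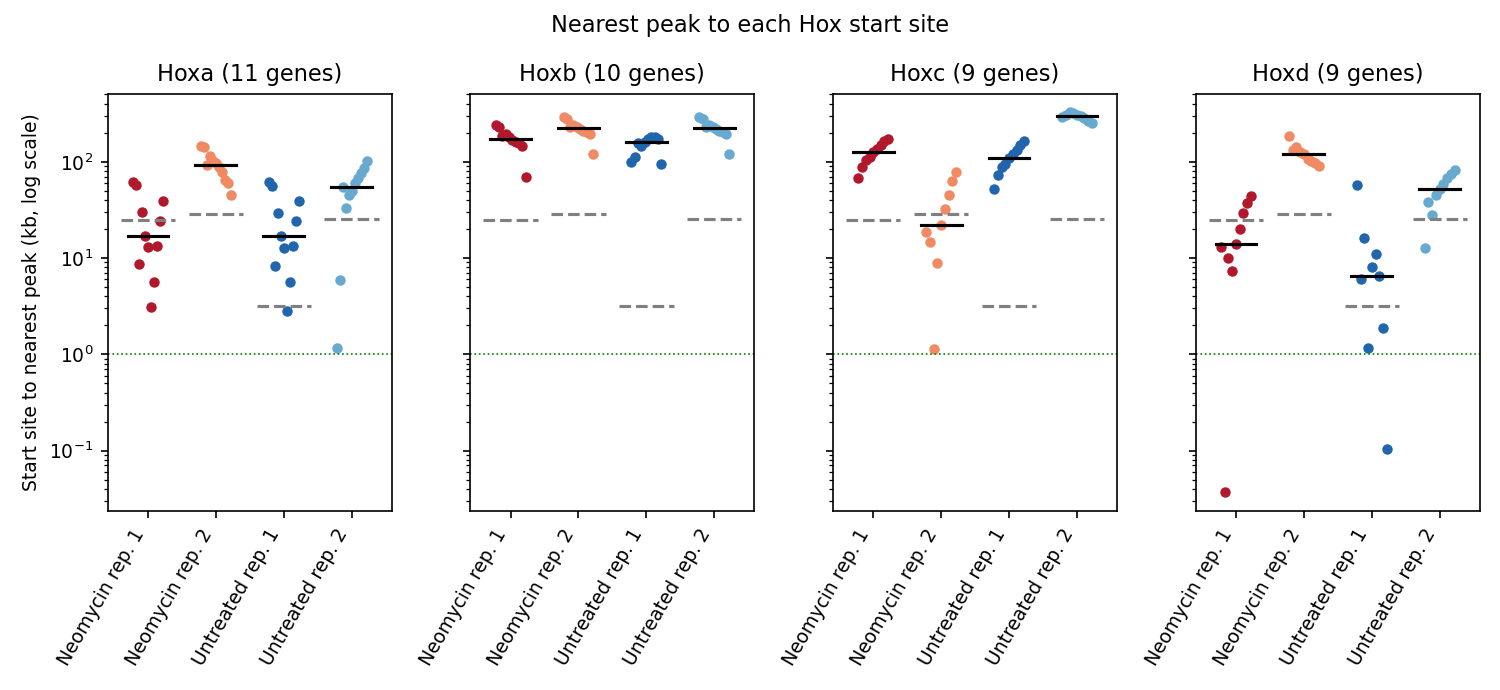
Distance in kb (log scale) from the start sites of each Hox gene to the nearest peak, 1 panel per cluster and 1 column per library. Points are genes, black bars the median of the cluster, dashed grey bars the median of all assessed genes in that library, and the dotted green line the 1 kb limit. The Hoxb genes lie at 69.7 kb or more in every library, and 2 points of the Hoxd panel are below the limit.

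By paralog group, Hoxd3 is an anterior and Hoxd13 a posterior gene. Each was marked in 1 library, which is too little to read a pattern along the axis. Of 12 anterior genes (paralog groups 1 to 4), 1 was marked in some library, of 11 central genes (5 to 8) 0, and of 16 posterior genes (9 to 13) 1. With the gene body and 1 kb on either side counted, 2, 2 and 1 had a peak. This wider count gave 1 and 1 members with neomycin (background 39.5% and 37.9%) and 2 and 1 untreated (50.9% and 39.5%). No member had a peak in all 4 libraries (20.0%), in the neomycin pair alone (1.6%) or in the untreated pair alone (4.34%). In at least 1 library 5 members had one, among them Hoxc6, Hoxd3, Hoxd8 and Hoxd13, each in 1 library, which is 12.8% of the members against 59.5% of all assessed genes. Hoxc6 and Hoxd8 lay just outside the promoter rule, with peaks 1.14 to 1.15 kb from their starts.

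Peaks in the clusters were seldom shared between libraries. Merged where they overlap, the 10 peaks formed 8 regions, of which 2 (25.0%) were called in at least 2 libraries, against 51.4% of 24272 regions over the main chromosomes. The 2 shared regions each joined a neomycin with an untreated library. Of the 8 regions inside the clusters, 0 were found in both neomycin libraries and 0 in both untreated libraries. Over the main chromosomes these counts were 4540 and 8246 of 24272 regions. With only 8 regions in the clusters, a difference in these shares was not tested.

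Non-coding genes within the clusters were counted by peaks inside the gene, with no count of such genes elsewhere to set beside it. Of 25 long non-coding RNAs that overlap the clusters, 4 held a peak, among them Gm38462, Hoxd3os1 and Haglr. These are not separate marks, since the 48 bp peak assigned to Hoxd3 lies in both Gm38462 and Hoxd3os1. The other peak in Gm38462 is the one inside Hoxd8. Hotair, transcribed within the Hoxc cluster and known for its binding of polycomb proteins in human cells, held none in any library. The 6 microRNA genes, which include the mir-10 and mir-196 families that repress Hox messages, had no peak within 1 kb. The mature 5p sequences of these 2 families from RefSeq (GRCm38.p6) are shown with the seed, bases 2 to 8, in capitals. These landmarks within the clusters share a seed within each family. By the annotated spans, Mir10a lies inside Hoxb3, and Mir10b inside Hoxd3 and Hoxd4.
mmu-miR-10a-5p: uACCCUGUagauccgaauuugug
mmu-miR-10b-5p: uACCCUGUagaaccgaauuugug
mmu-miR-196a-5p: uAGGUAGUuucauguuguuggg
mmu-miR-196b-5p: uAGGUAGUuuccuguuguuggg

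Mir10a lies in the Hoxb cluster (chr11:96317186-96317208 for the mature strand), with its nearest peak 193 and 242 kb away with neomycin and 147 and 242 kb away untreated. Mir10b lies in the Hoxd cluster (chr2:74726074-74726096), with peaks 14.1 and 148 kb away with neomycin and 20.1 and 23.9 kb away untreated. Mir196b in the Hoxa cluster had its nearest peaks 8.4 and 76.0 kb away with neomycin and 8.44 and 71.3 kb away untreated. The same mature miR-196a sequence is made from Mir196a-1 in the Hoxb cluster and Mir196a-2 in the Hoxc cluster, where the nearest peaks were 26.0 to 303 kb away. The sixth gene, Mir615, lies in the Hoxc cluster.

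The 22 Hox promoters that could be read were by their median not poor in CpG, a feature that went with more frequent marking over all genes. Of the Hoxb cluster they include only Hoxb1, Hoxb4 and Hoxb8, and of the Hoxc cluster only Hoxc4. Hoxd11 and Hoxa10 have several windows, and the window with the higher ratio was used (0.875 against 0.257, and 0.853 against 0.596). With their lower windows both would fall below 0.6. Over the 22 members with a printed-length window of 300 bases, the median of the CpG observed over expected ratio was 0.705 (range 0.28 to 1.02), against 0.61 over 17492 protein-coding genes. The median GC content was 58.7% for Hox and 57.0% for all. At a ratio of at least 0.6, 1 and 0 of 12 Hox promoters were marked with neomycin (8.33% and 0%) and 1 and 0 untreated (8.33% and 0%). Of all 8896 promoters at that ratio, 59.9% and 58.3% were marked with neomycin and 79.6% and 63.2% untreated. Below 0.6, 0 of 10 Hox promoters were marked in any library, against 21.7% of 8596 promoters marked in at least 1 library. Hoxd3, with a ratio of 0.92, and Hoxd13, with 0.904, were both in the CpG-rich class. So were the unmarked Hoxa5 (1.02), Hoxa6 (0.923) and Hoxa13 (0.918).

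**Figure D3:**
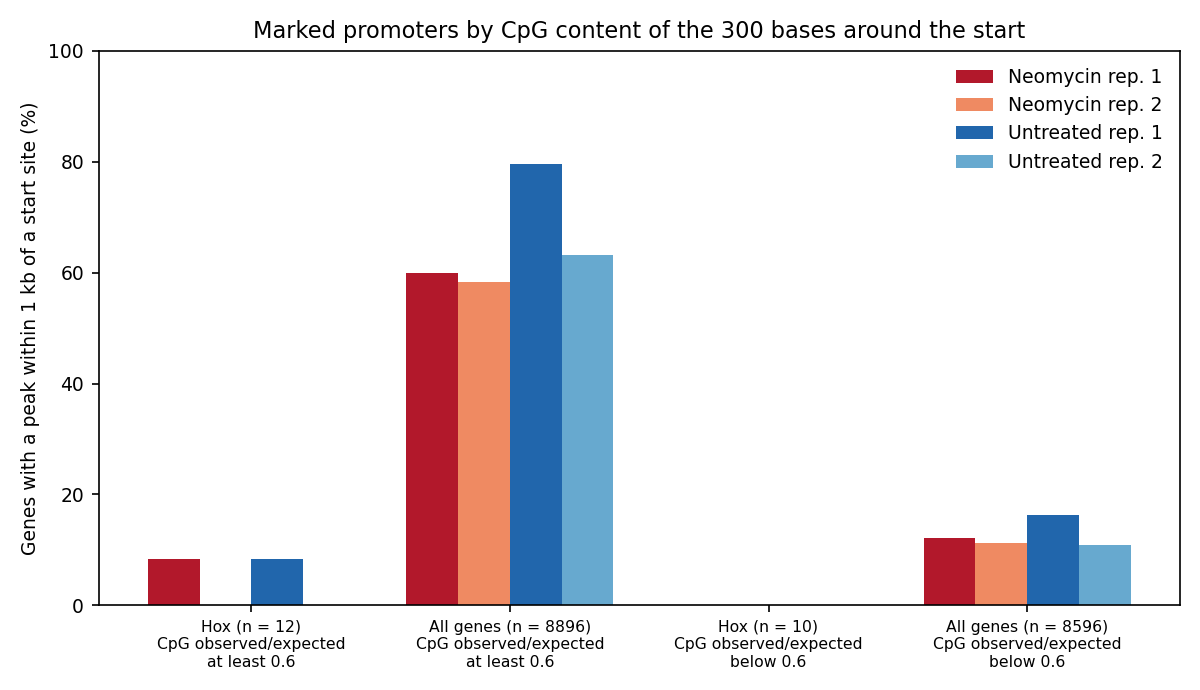
Share of genes (%) with a peak within 1 kb of a start site, for Hox and for all protein-coding genes, split by the CpG observed over expected ratio of the 300 bases around the start. Bars are single libraries. Among CpG-rich promoters the Hox bars reach 8.33% at most, while those of all genes run from 58.3% to 79.6%.

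Of 12 assessed neighbours of the clusters listed by name, 8 and 4 were marked with neomycin (66.7% and 33.3%) and 5 and 4 untreated (41.7% and 33.3%). Over all genes the shares were 36.4% and 35.2% with neomycin and 48.4% and 37.4% untreated, so 3 of the 4 libraries were below them. Mtx2, a mitochondrial outer membrane protein whose gene lies 60.7 kb above Hoxd1, had 181 and 0 bp of promoter peaks with neomycin and 492 and 387 bp untreated. Lnpk, an endoplasmic reticulum protein whose gene lies 88.8 kb below Hoxd13, was marked in all 4 libraries, with 98 and 115 bp with neomycin and 512 and 555 bp untreated. Between Lnpk and the cluster lies Evx2, a homeobox gene related to Hox, 6.71 kb from Hoxd13 and without a peak in any library. Evx1, the matching gene 52.6 kb above the Hoxa cluster, had no promoter peak either, but both neomycin libraries had a peak about 7 kb before its start, of 95 and 162 bp (chr6:52306079-52306173 and chr6:52306109-52306270). No untreated peak lay there. The nearest untreated peaks to the Evx1 start were 91.8 and 155 kb away, and those above the cluster were 379 kb from it in both libraries. Sites of the neomycin pair alone were not counted between genes. Among promoters, that pattern had a share of 1.51% over all genes.

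Farther out on chromosome 6, Hibadh, an enzyme of valine breakdown, had 278 and 0 bp with neomycin and 358 and 383 bp untreated. Skap2 on the other side was marked in neomycin replicate 2 alone, and Snx10, the next gene beyond it, in all libraries except untreated replicate 2. Next to the Hoxb cluster, Ttll6 was marked in neomycin replicate 1 alone and Snx11 in neomycin replicate 2 alone. Calcoco2 and Skap1 have no start site in the table used. Counted over the gene body and 1 kb, Calcoco2 had a peak in the replicate 1 of each group and Skap1 in untreated replicate 1. Next to the Hoxc cluster, Calcoco1 and Smug1 were marked in neomycin replicate 1 alone and Cbx5 in neomycin replicate 2 alone, while Atp5g2 was marked in all libraries except neomycin replicate 1. Gm50595, above Mtx2, was unmarked.

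Genes that act with or on the Hox genes are read beside the shares over all genes, 36.4% and 35.2% with neomycin and 48.4% and 37.4% untreated. For all 4 libraries the share over all genes was 17.6%, and for the untreated pair alone 4.56%. Of 7 assessed genes of the TALE cofactor list, 3 and 3 were marked with neomycin (42.9% each) and 5 and 6 untreated (71.4% and 85.7%). Its Pbx and Meis members are homeodomain partners that bind DNA together with Hox proteins. Tgif1 and Tgif2, TALE repressors, were marked in all 4 libraries. Of the Pbx and Meis members, only Meis1 was marked in neomycin replicate 1 and only Pbx4 in neomycin replicate 2. Pbx2 and Meis3 were marked in the 2 untreated libraries alone. Pbx2 had 342 and 244 bp of peaks in untreated replicates 1 and 2, and Meis3 194 and 253 bp. Meis1 was marked in all but neomycin replicate 2, and Meis2 in no library. Of 15 upstream regulators, which include the retinoic acid receptors and the enzymes that make and break down retinoic acid, 8 and 5 were marked with neomycin (53.3% and 33.3%) and 9 and 6 untreated, below the share over all genes in neomycin replicate 2 and above it in the other libraries. The receptors Rara, Rarg and Rxra and the hindbrain factor Egr2 were marked in all 4, while Cdx2 and Cdx4, activators of the posterior Hox genes, and the retinoic acid degrading Cyp26a1, Cyp26b1 and Cyp26c1 were unmarked throughout.

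Of 17 members of the polycomb and trithorax groups, 15 and 14 had a promoter peak with neomycin (88.2% and 82.4%) and 16 and 15 untreated (94.1% and 88.2%). In all 4 libraries 12 had a promoter peak, against a share of 17.6% over all genes. Among these were Cbx8, Ezh1, Jarid2 and Ezh2, the main methyltransferase of polycomb. Kmt2a, named here for its role at Hox promoters, was also marked in all 4. Of 22 other developmental homeobox and Pax genes of the ear and forebrain, 9 and 10 were marked with neomycin (40.9% and 45.5%) and 12 and 13 untreated (54.5% and 59.1%). In all 4 libraries 7 were marked, against the same share of 17.6% over all genes. These 7 include Irx2, Irx3, Msx1 and Pax2, a transcription factor of the early otic vesicle. Emx2, which orients hair cells, was marked by the untreated pair alone (4.56% over all genes), with 772 and 782 bp of peaks. Of 5 ParaHox and linked genes, 2 and 0 had a promoter peak with neomycin and 2 and 0 untreated, and Pdx1 and En1 in no library. These counts describe the libraries, and no difference between the lists was tested. Members without an entry in the promoter table were left out of these lists, while for Hox they were placed by the strand of their cluster.

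**Figure D4:**
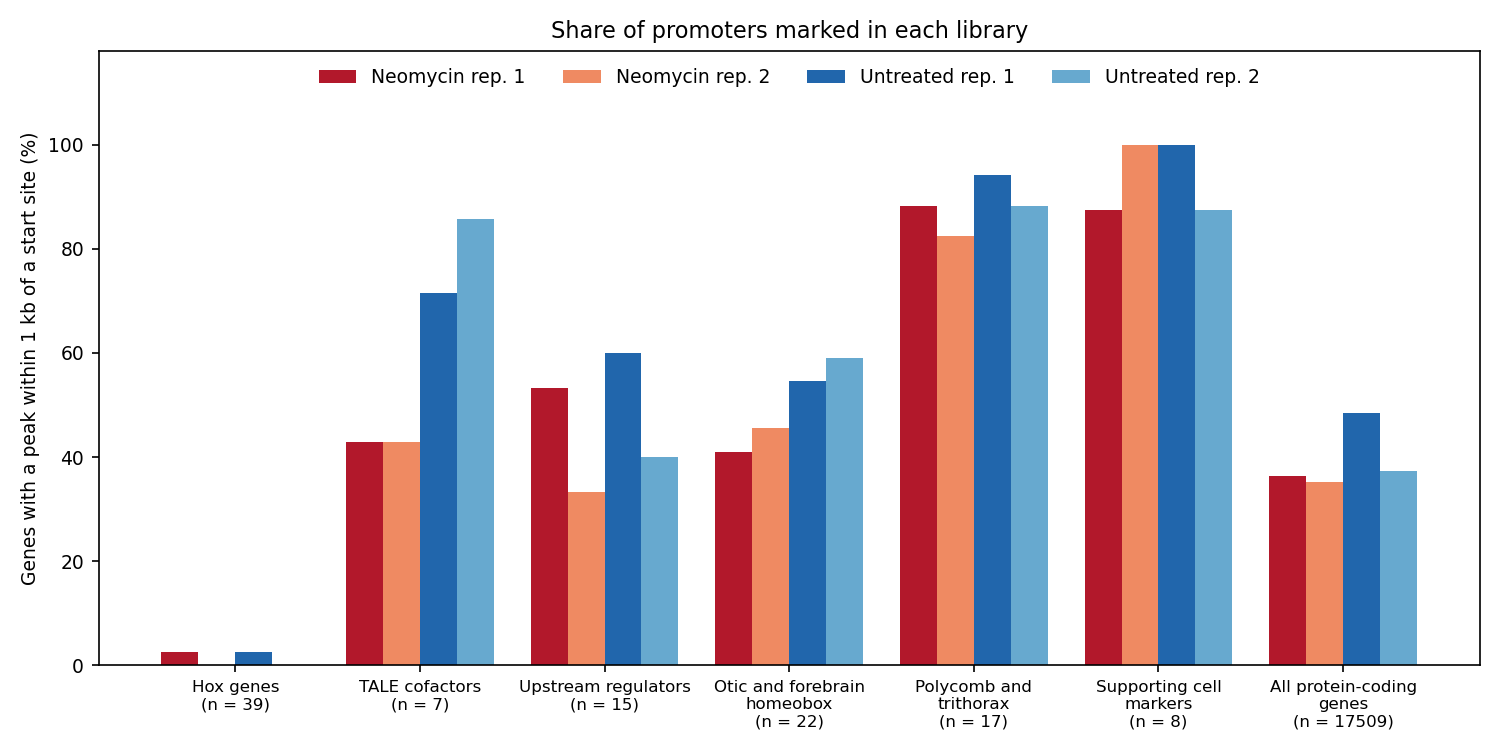
Share of genes (%) with a peak within 1 kb of a start site in each library, for Hox genes, for 5 of the gene lists described and for all assessed protein-coding genes. Bars are single libraries, neomycin in red shades and untreated in blue shades. The Hox bars are 2.56% or 0%, and the polycomb and trithorax bars run from 82.4% to 94.1%.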

How the data were processed

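Of 6 libraries, 4 of H3K4me3 were used, and the 2 inputs were not analysed here. Each deposited file lists the peaks of 1 library with a length in bp, a pileup signal, a fold enrichment ratio, a -log10 p-value and a -log10 q-value, as the authors' caller gave them. The submitters' processing notes name the build mm10 and CASAVA 1.4, Bowtie2, MACS2 and deepTools, with parameters not given in the sources used here. The pileup, fold enrichment and q values were used to describe or filter peaks within a list, and pileup also as an alternative outcome to peak length.

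Start sites were those of the RefSeq promoter table of GRCm38.p6 plus the 5' end of the annotated gene. Of 21887 protein-coding genes on the main chromosomes, 17492 have an entry. Apart from the Hox genes, those without an entry, the genes of chromosome 18 among them, were not assessed for a promoter peak. The 1068 Mb used for peak density included genes without an entry, and Calcoco2 and Skap1 were read over the gene body. The 17 Hox genes without an entry were given the strand shared by the other genes of their cluster. A peak had to overlap a window by at least 1 bp. Genes to name were all members, the 2 nearest protein-coding neighbours on either side of each cluster and up to 4 marked genes per pattern of each list, and others are named for their role or where a count needed them. An item counted in the totals is not reported singly here. Members and lists were chosen with earlier results of these data known. Whether the replicate numbers pair the libraries is not known, so the libraries were compared unpaired, with blocked results in the closing section. Window assignment and the limma fit were tested on simulated data.

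Groups were compared by exact permutation over libraries, and peak length with limma 3.58.1 in R 4.3.3. The remaining work ran in Python 3.11.15 with scipy 1.17.1, numpy 2.4.6, pandas 2.3.3 and matplotlib 3.10.9. All p-values rest on differences between these 4 libraries alone, which may be technical. The permutation p is the share of relabelings of the libraries that give a difference at least as large.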

Additional observations from a re-analysis of the deposited data

How the results depend on the processing

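The number of Hox promoters marked in at least 1 library, 2 as reported, was 6 with windows of 2.5 kb, 5 over the gene body and 1 kb, 1 when at least 200 bp had to be covered, 1 with lists of equal length and 0 when peaks needed a -log10 q of 10. It was 2 with 500 bp, with both gene ends and, chosen after seeing the data, with the starts of the promoter table alone. Of these changed settings, the share over all genes is given only for the gene body and 1 kb (59.5%). The other counts thus do not compare Hox with other genes. The mean number marked, neomycin minus untreated, was -1.0 with 2.5 kb and 0.5 with lists of equal length, against 0.0, and -0.5 to 0.5 without 1 library, so its sign went both ways. Leaving out 1 library gave 1 to 2 promoters marked in at least 1 library (1 without neomycin replicate 1, which removes Hoxd3, or without untreated replicate 1, which removes Hoxd13). It gave 0 to 1 for neomycin alone, Hoxd3 without neomycin replicate 2, and 0 to 1 for untreated alone, Hoxd13 without untreated replicate 2. No setting put a Hox promoter in all 4 libraries. The difference in peaks inside the clusters was -2.0 to 0.0 without 1 library, and that in peak bases -912.0 to -431.0, against -342.5 with lists of equal length and -671.5 as reported. Under the limit of 10 on -log10 q the difference in peak bases was -142.5, from the 1 peak between Hoxa7 and Hoxa9 that remained. In the limma fit of peak length, which holds no Hox promoter, 894 promoters passed without centring on the median of each library, all of them shorter with neomycin, 0 passed with pileup as the outcome, 0 with the replicate block, and 0 to 187 without 1 library (24 without neomycin replicate 1 and 187 without neomycin replicate 2); the cause was not tested. Under the limit of 10 on -log10 q, 0 promoters were marked in all 4 libraries and the fit could not be made. Within replicate 1 and replicate 2 taken as a block, the difference in marked Hox promoters was 0.0 in both and in peaks -1.0 in both, and in peak bases -895.0 and -448.0. Same-numbered libraries deviated with a correlation of -0.0298 in centred peak length. With 2 libraries per group this sets 1 difference beside another, so it cannot show whether the numbers pair them. Replicate 1 had more peaks than replicate 2 in both groups. The lists give no depth, so a peak that was not called cannot be told apart from a mark below the caller's limit.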
